A study of Homo sapiens with 52 samples.

Results

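Expression of 10 genes of the transforming growth factor β (TGF-β) pathway was followed across a bulk RNA sequencing resource on neuropilin-1 (NRP1) knockdown in breast cancer cell lines. The genes were taken by name and make up 10 of the 78894 gene-level entries. They comprise the ligands TGFB1, TGFB2 and TGFB3, the latent TGF-β binding proteins LTBP1 and LTBP2, and the receptors TGFBR1, TGFBR2 and TGFBR3 (betaglycan). The set is completed by the inhibitory Smad SMAD7 and by TGFBI, an extracellular matrix protein named for its induction by TGF-β.

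TGF-β is secreted in a latent complex, in which LTBP proteins such as LTBP1 tether the inactive ligand to the extracellular matrix. Once released, the ligand binds the type II receptor TGFBR2, which recruits and phosphorylates the type I receptor TGFBR1, and the signal is carried to the nucleus by SMAD2 and SMAD3. TGFBR3 is a co-receptor that presents ligand to TGFBR2, TGFB2 in particular. SMAD7 is induced by the pathway and acts back on the receptors to dampen it. In mesenchymal breast cancer cells the pathway is best known for its part in epithelial to mesenchymal transition, and NRP1 is a transmembrane co-receptor that can also bind TGF-β.

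SUM159PT (17 libraries), MDA-MB-231 (18) and HS578T (17) are established breast cancer lines of the claudin-low subtype, each given 6 treatments. For the siRNA arm, siNRP1#3, siNRP1#5 or a non-targeting control (siNT) was transfected at 20 nM, and RNA was taken 72 hrs later. For the shRNA arm, cells carried lentiviral shNT, shNRP1#3 or shNRP1#5 under puromycin selection and were harvested 48 hrs after seeding, with consecutive passages as replicates. Of the 18 groups, 16 held 3 libraries, and SUM159PT siNRP1#5 and HS578T shNRP1#3 held 2. The #3 constructs were designed against transmembrane NRP1 and the #5 constructs against the transmembrane and soluble forms. By the study's methods siNRP1#5 and shNRP1#5 share one target sequence, whereas the sequences given for siNRP1#3 and shNRP1#3 differ. The siNT and shNT controls differ at once in delivery, selection and harvest time, so each knockdown was compared with its own control.

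Libraries held 25310443 to 72003442 expected counts (median 44804505), and the median over libraries was at least 162.5 expected counts for each of the 10 genes. NRP1 itself was lower than its control in all 12 knockdown comparisons and passed the test in 11 of 12. The exception was HS578T shNRP1#3, with a log2 fold change of -1.59 (edgeR quasi-likelihood test, Benjamini-Hochberg adjusted p = 0.069), which passed with DESeq2, with no filter on low counts, without the HS578T siNRP1#5 libraries and in the fit blocked by replicate (-1.43, adjusted p = 0.0391). In MDA-MB-231 siNRP1#3 the decrease passed on counts (log2 -0.70, adjusted p = 0.00173), yet the libraries held 24.8, 29.5 and 31.3 TPM (transcript abundance scaled to a fixed total per library, corrected for length) of NRP1 against 25.6, 29.3 and 31.6 TPM in siNT. That call was lost with limma on log2(TPM + 0.1), where the value was -0.02 (adjusted p = 0.971). The study's RT-qPCR found transmembrane NRP1 significantly reduced in this group. It also reported the soluble form as the main NRP1 transcript under the #3 constructs. Whether that shift bears on the length-corrected TPM was not tested. NRP1 in SUM159PT shNRP1#3 was lost in 5 single-library omissions (adjusted p 0.0507 to 0.15) and in HS578T siNRP1#3 without siNRP1#3 replicate 1 (adjusted p = 0.0683) and with limma (adjusted p = 0.396). Against the claudin-low label, MDA-MB-231 libraries held a median of 149 TPM of CLDN4, 35.4 TPM of CLDN7 and 22.7 TPM of EPCAM. By contrast, these medians were 0.99, 0.37 and 0.26 TPM in SUM159PT and 1.02, 0.47 and 0.15 TPM in HS578T. The highest CLDN4 values in these lines were 27.9 and 25.6 TPM. Median CLDN3 was 0.05, 6.86 and 0 TPM in SUM159PT, MDA-MB-231 and HS578T. The mesenchymal markers VIM and CD44 were high in all 3 lines and CDH1 stayed at or below 3.33 TPM. Medians in SUM159PT, MDA-MB-231 and HS578T were 4.56, 13.0 and 6.07 TPM for mesenchymal ZEB1. They were 7.29, 8.61 and 54.7 TPM for mesenchymal SNAI2 and 1004, 1081 and 116 TPM for luminal KRT8. Luminal ERBB2 reached 48.6 TPM, while ESR1 and PGR stayed at or below 0.36 TPM. The leukocyte gene CD3E stayed at or below 0.07 TPM, while PTPRC reached 13.1 TPM and the endothelial gene PECAM1 15.9 TPM in SUM159PT. Endothelial CDH5 stayed at or below 0.97 TPM in SUM159PT and 3.87 TPM in MDA-MB-231. The 3 HS578T siNRP1#5 libraries also expressed genes particular to the MDA-MB-231 controls, with medians over 59 such genes of 26.1%, 20.1% and 14.0% of what the MDA-MB-231 controls held. HS578T siNRP1#3 libraries did so at 2.85% to 7.56% and HS578T siNT libraries at 0.745% to 2.31%, and the members in these groups were recomputed with that share subtracted. HS578T siNRP1#5 replicate 2 also expressed genes particular to the SUM159PT controls, at 8.03% of their level there over 70 genes against 1.88% and 1.36% in replicates 1 and 3, and no subtraction was made for these. In bulk RNA, fewer cells of a type and less RNA per cell cannot be told apart.

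In the non-targeting controls, each line had its own profile. Per transcript length, TGFBI was the highest member in all 3 lines, followed by TGFB1 in SUM159PT and HS578T and by TGFBR2 in MDA-MB-231. TGFB3 was the lowest in SUM159PT and MDA-MB-231, and TGFBR3 in HS578T. TGFB1 was highest in HS578T, with a median of 251 TPM over 6 controls (218 to 274 TPM), followed by SUM159PT at 137 TPM (127 to 148 TPM) and MDA-MB-231 at 69.7 TPM (61.7 to 82.5 TPM). These ranges did not overlap. TGFB2 had another order, with 38.4 TPM in MDA-MB-231 (24.9 to 53.8 TPM), 11.4 TPM in HS578T (8.55 to 18.01 TPM) and 8.94 TPM in SUM159PT (6.83 to 15.0 TPM). The ranges of the last pair overlapped. TGFB3 stood at a median of 4.43 TPM in HS578T, though with a wide range of 1.04 to 5.10 TPM, and near 1 TPM in the other lines.

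**Figure D1:**
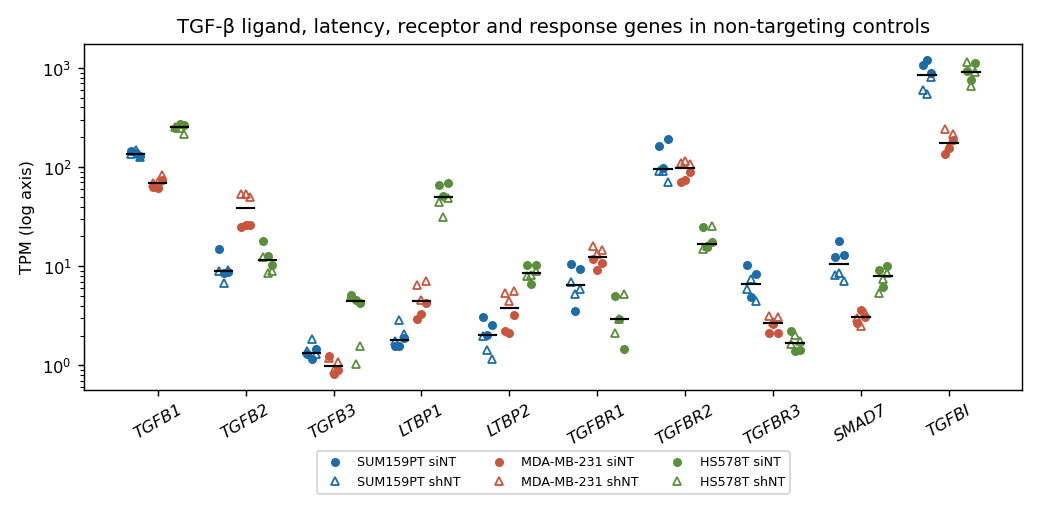
TPM (log axis) of the 10 genes in the 6 non-targeting controls of each line, with siNT as filled circles, shNT as open triangles and the median of each line as a black bar. HS578T sits apart in LTBP1, at 31.1 to 68.4 TPM against at most 7.03 TPM in the other lines, and is lowest in TGFBR2.

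The LTBP genes were the clearest HS578T feature. LTBP1 had a median of 49.8 TPM there, against 4.42 TPM in MDA-MB-231 and 1.82 TPM in SUM159PT, and LTBP2 had 8.58, 3.83 and 2.00 TPM in the same order. The receptors ran the other way. TGFBR2 was at 16.9 TPM in HS578T, 97.5 TPM in MDA-MB-231 and 95.3 TPM in SUM159PT, and TGFBR1 at 2.95, 12.5 and 6.39 TPM. TGFBR3 was highest in SUM159PT, at 6.64 TPM against 2.68 TPM in MDA-MB-231 and 1.70 TPM in HS578T. SMAD7 was lowest in MDA-MB-231 (3.06 TPM), with 7.95 TPM in HS578T and 10.5 TPM in SUM159PT, and TGFBI likewise (174 TPM, against 915 and 852 TPM).

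These line differences were tested on counts in 1 model of all 52 libraries, averaging siNT and shNT. Lines differ across the transcriptome, and 59.4% of all 23416 tested genes passed between SUM159PT and MDA-MB-231, 70.2% between HS578T and MDA-MB-231, and 63.5% between HS578T and SUM159PT. Of the 10 genes, 9 passed in each of these comparisons. The largest difference was LTBP1 in HS578T over SUM159PT, with a log2 fold change of 5.19 (SE 0.20, adjusted p = 3.02e-24). Neighbours that were not separated by the test were TGFBR3 in HS578T and MDA-MB-231 (log2 0.00, SE 0.19) and SMAD7 in HS578T and SUM159PT (log2 -0.06, SE 0.20). TGFBR1 in SUM159PT and MDA-MB-231 differed by -0.47 (SE 0.21, adjusted p = 0.0556) and passed with RLE size factors, with no filter, with DESeq2 and without replicate 1. TGFBR2 was close in TPM between SUM159PT and MDA-MB-231, but its count-based level was higher in SUM159PT by 0.63 (SE 0.18, adjusted p = 0.00338).

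After knockdown, 33 of the 120 comparisons of a gene with its control passed the test, 28 of them as a decrease and 5 as an increase. By line these were 10 of 40 in SUM159PT, 18 of 40 in MDA-MB-231 and 5 of 40 in HS578T, and the background differed as much. Over all tested genes, 0.00509% to 14.4% rose and 0.0305% to 14.9% fell in the 12 comparisons. MDA-MB-231 siNRP1#3 and siNRP1#5 had the most member calls. Of all genes, 11.4% rose and 14.3% fell in the first, and 14.4% rose and 14.9% fell in the second. In SUM159PT, siNRP1#3 changed 3 members (8.66% of all 20067 tested genes), siNRP1#5 4 (17.9%), shNRP1#3 0 by edgeR (1.4%) and shNRP1#5 3 (5.94%). In MDA-MB-231, the counts were 7 (25.7% of 18800 genes), 6 (29.4%), 1 (3.65%) and 4 (20.7%). In HS578T, they were 1 (4.65% of 19661 genes), 3 (18.7%), 0 by edgeR (0.0356%) and 1 (0.946%). For shNRP1#3, 3 members in SUM159PT and 1 in HS578T had an unadjusted p under 0.05, while DESeq2 called 1 and 0 and limma 0 and 0. By gene, TGFBR2 was called in 6 of 12 comparisons, TGFBR3 in 5, TGFBR1 in 4, TGFB2, TGFB3, LTBP1, LTBP2 and SMAD7 in 3 each, TGFB1 in 2 and TGFBI in 1. The median log2 fold change of the 10 members was -0.77 in SUM159PT siNRP1#5, where that of all genes was 0.01, and -0.62 and -0.52 in MDA-MB-231 siNRP1#3 and siNRP1#5, against -0.01 and 0.01. In the other 9 comparisons it lay between -0.26 and 0.22.

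**Figure D2:**
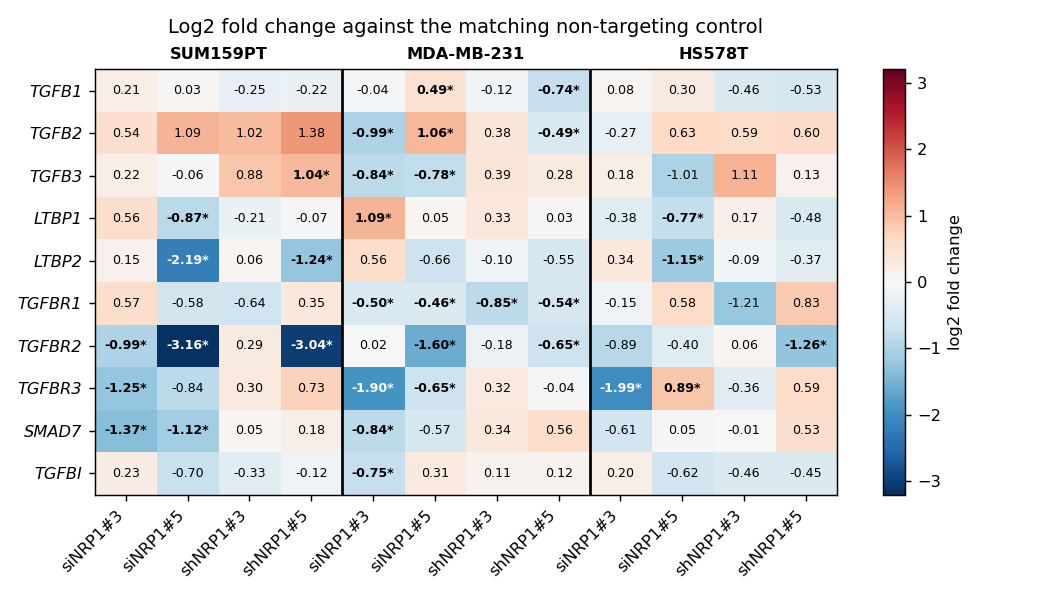
Log2 fold change of each gene (rows) against the matching non-targeting control in the 12 knockdown comparisons (columns, grouped by line), with an asterisk and bold type where the adjusted p was under 0.05. TGFBR2 is lowest with the #5 constructs in SUM159PT (-3.16 and -3.04), and TGFBR3 is low with siNRP1#3 in all 3 lines (-1.25, -1.90 and -1.99).

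TGFBR2, the type II receptor, had the greatest changes and fell in 5 of the 6 comparisons of a #5 construct with its control. The gene lies on the + strand of chromosome 3 (30606601 to 30694142, GRCh38). In SUM159PT, the siNT libraries held 165, 99.0 and 192 TPM of TGFBR2, the siNRP1#5 libraries 8.60 and 17.2 TPM. The shNT libraries held 91.5, 90.9 and 71.3 TPM and the shNRP1#5 libraries 14.6, 8.77 and 10.8 TPM. Every #5 library was thus below every control, with no overlap. The log2 fold change was -3.16 (SE 0.34, 8.93-fold lower, adjusted p = 7.66e-05) for siNRP1#5 and -3.04 (SE 0.29, 8.22-fold lower, adjusted p = 2.23e-05) for shNRP1#5. Both calls held under all alternatives run, including each library left out.

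**Figure D3:**
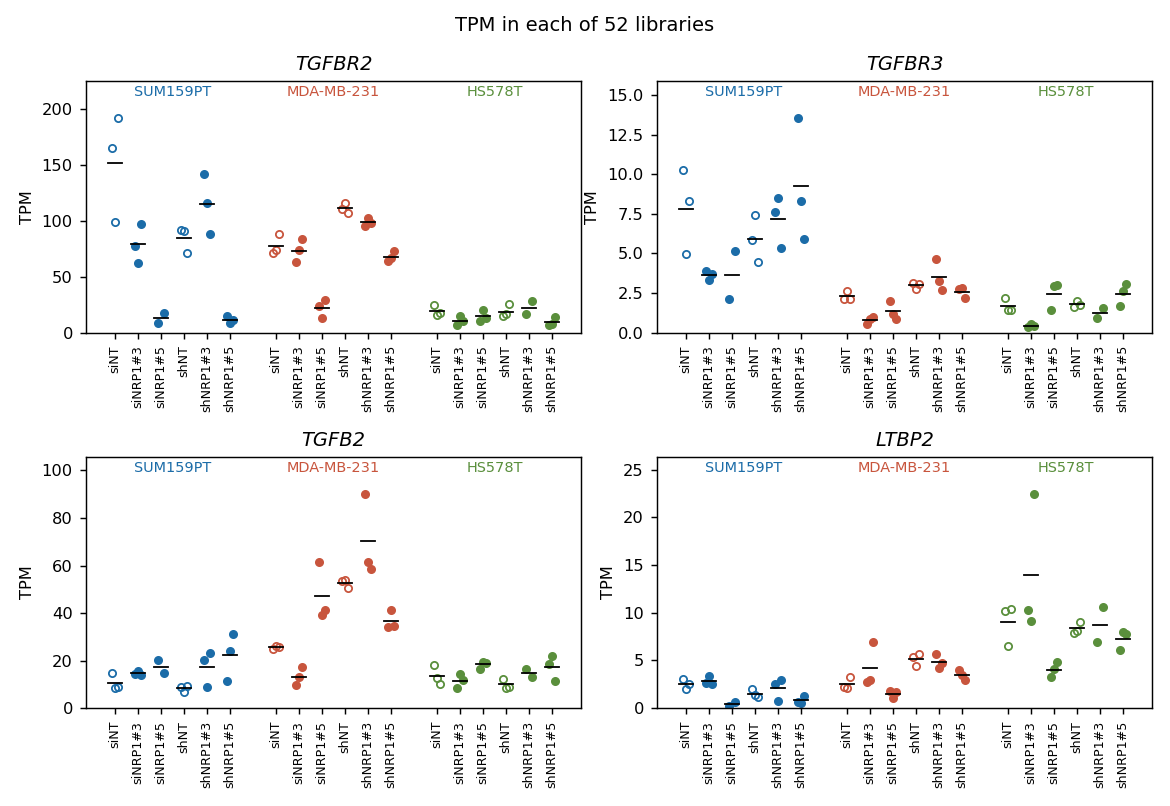
TPM of TGFBR2, TGFBR3, TGFB2 and LTBP2 in each of the 52 libraries, by line (colour) and treatment, with controls as open circles, knockdowns as filled circles and the group mean as a black bar. TGFBR2 in SUM159PT is at 71.3 to 192 TPM in the controls and at 8.60 to 17.2 TPM in the #5 libraries. The siNRP1#3 libraries (62.3 to 97.1 TPM) all lie below siNT (99.0 to 192 TPM). The shNRP1#3 libraries (88.25 to 142 TPM) overlap with shNT (71.3 to 91.5 TPM).

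In MDA-MB-231, TGFBR2 went from 71.3, 73.6 and 88.4 TPM in siNT to 23.9, 12.9 and 28.6 TPM in siNRP1#5, again without overlap. The log2 fold change was -1.60 (SE 0.19, adjusted p = 3.73e-06). The shNRP1#5 decrease was smaller, from 111, 116 and 107 TPM to 63.8, 66.7 and 73.2 TPM, a log2 fold change of -0.65 (SE 0.18, adjusted p = 0.0164). That call ended without shNRP1#5 replicate 1, shNRP1#5 replicate 2 or shNT replicate 2 (adjusted p 0.058 to 0.0605). In HS578T, where TGFBR2 started lower, shNRP1#5 libraries held 6.40, 7.82 and 14.1 TPM against 14.8, 16.2 and 25.2 TPM in shNT, and did not overlap with them. Its log2 fold change of -1.26 (SE 0.28) passed narrowly (adjusted p = 0.0426) and was lost when any library of this comparison other than shNRP1#5 replicate 3 was left out (adjusted p 0.0579 to 0.234). It was also lost with the 2 groups fitted alone (adjusted p = 0.0841), with limma on log2(TPM + 0.1) (adjusted p = 0.217) and without the HS578T siNRP1#5 libraries, which shared the model (adjusted p = 0.0726).

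Of the 6 comparisons of a #3 construct, TGFBR2 passed by edgeR in SUM159PT siNRP1#3. The libraries there held 77.5, 62.3 and 97.1 TPM, all below the siNT range of 99.0 to 192 TPM. The log2 fold change was -0.99 (SE 0.27, adjusted p = 0.0297). That call was lost without any one of the 6 libraries except siNT replicate 2 (adjusted p 0.0607 to 0.101). It was also lost with the 2 groups alone and with limma (adjusted p = 0.0519 and 0.0806). In MDA-MB-231 siNRP1#3 the value was 0.02 (SE 0.18) and in HS578T siNRP1#3 -0.89 (SE 0.28, adjusted p = 0.0821). The HS578T siNRP1#3 libraries held 7.01 to 14.8 TPM against 15.65 to 24.9 TPM in siNT, without overlap. The HS578T value passed with DESeq2 (-0.87), with no filter (-0.89) and with a replicate block (-0.93, adjusted p = 0.0433). None of the 3 shNRP1#3 comparisons passed, with values of 0.29, -0.18 and 0.06.

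siRNA and shRNA guides are known to be able to act through bases 2 to 8 of the guide strand, as microRNAs do. The 3′ UTR of each member's canonical transcript (GENCODE v44, GRCh38) was searched on the sense strand for the 7 bases complementary to that stretch. For the #5 guide these are GCACTTA and for the siNRP1#3 guide CACAAGA. They occur in 7.95% and 9.51% of 19571 annotated 3′ UTRs. Of the 10 members, TGFBR2 alone held GCACTTA, at 2 places in its last exon (exon 7 of 7), and SMAD7 and TGFB2 each held CACAAGA once. These sites are shown because they lie in members that changed with the same constructs, with the match in capitals and 11 bases on either side.

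TGFBR2 (chr3:30692511-30692517, + strand): atctttcccctGCACTTAtgttactattc
TGFBR2 (chr3:30694023-30694029, + strand): aaaagtctcaaGCACTTAtttttattcta
SMAD7 (chr18:48919946-48919952, - strand): aaaaagataaaCACAAGAttggtgttttt
TGFB2 (chr1:218444153-218444159, + strand): atgctttaaagCACAAGAgtcaggccata

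A match of this length is a description of the sequence, and its part in any change was not tested. Across all tested genes with an annotated 3′ UTR, those with GCACTTA had a median log2 fold change of -0.44 in SUM159PT siNRP1#5 and -0.49 in MDA-MB-231 siNRP1#5, against 0.08 and 0.03 for genes without it. In shNRP1#5 the medians were -0.18 against 0.00 and -0.06 against -0.02, and in HS578T siNRP1#5 and shNRP1#5 0.00 against 0.09 and 0.15 against 0.03. GCACTTA was also followed under the #3 constructs, in SUM159PT, MDA-MB-231 and HS578T in turn. With siNRP1#3 the medians were -0.02 against -0.05, -0.16 against -0.04 and -0.01 against 0.01. With shNRP1#3 the medians were 0.05 against -0.02, -0.02 against -0.01 and 0.11 against -0.01. For CACAAGA in siNRP1#3 they were -0.21 against -0.03 in SUM159PT, -0.29 against -0.02 in MDA-MB-231 and -0.09 against 0.02 in HS578T. Genes with a match had longer 3′ UTRs, with a median of 3370.5 against 1124 bases for GCACTTA in SUM159PT, and length was not held equal here.

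**Figure D4:**
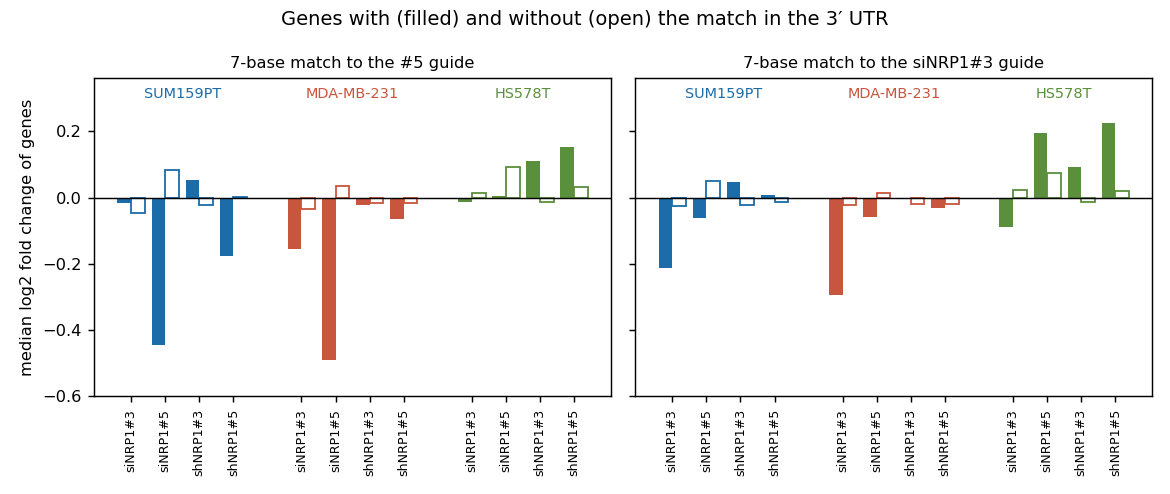
Median log2 fold change of genes whose 3′ UTR holds (filled bars) or lacks (open bars) the 7-base match to the #5 guide (left) or the siNRP1#3 guide (right), in the 12 knockdown comparisons by line. The lowest bars are genes with the #5 match under siNRP1#5, at -0.44 in SUM159PT and -0.49 in MDA-MB-231, whereas in HS578T that median was 0.00.

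At the transcript level, the decrease of TGFBR2 in SUM159PT was spread over its annotated transcripts. The protein-coding transcript TGFBR2-201 averaged 28.4 ± 1.95 TPM (SD, n = 3) in shNT and 4.03 ± 2.05 TPM (n = 3) in shNRP1#5, while its share of the gene's transcripts was 33.8% ± 2.61 and 34.3% ± 14.2 (SD). A second annotated transcript averaged 29.7 ± 5.60 TPM in shNT and 3.53 ± 2.09 TPM in shNRP1#5. Shares of the smaller transcripts varied widely between replicates, and transcript values were not tested.

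TGFBR3, the co-receptor betaglycan (chromosome 1, 91680343 to 91906335, - strand), fell with siNRP1#3 in all 3 lines. In HS578T it went from 2.20, 1.41 and 1.43 TPM in siNT to 0.34, 0.52 and 0.42 TPM in siNRP1#3. In MDA-MB-231 it went from 2.13, 2.63 and 2.14 TPM to 0.55, 0.87 and 1.01 TPM, and in SUM159PT from 10.2, 4.95 and 8.32 TPM to 3.86, 3.33 and 3.71 TPM. In none of the 3 lines did knockdown and control libraries overlap. The log2 fold changes were -1.99 (SE 0.31, adjusted p = 0.00202), -1.90 (SE 0.20, adjusted p = 1.54e-06) and -1.25 (SE 0.31, adjusted p = 0.019). The first 2 held under all alternatives run, and the SUM159PT call was lost without siNT replicate 1 or any of the siNRP1#3 replicates (adjusted p 0.0559 to 0.0744) and with limma (adjusted p = 0.105).

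With shNRP1#3, which does not share the siNRP1#3 sequence, TGFBR3 did not pass in any line (0.30, 0.32 and -0.36 in SUM159PT, MDA-MB-231 and HS578T). The 3′ UTR of TGFBR3, unlike that of SMAD7 or TGFB2, held no CACAAGA. With siNRP1#5 the gene went in both directions. It fell in MDA-MB-231, to 2.00, 1.16 and 0.87 TPM (log2 -0.65, SE 0.19, adjusted p = 0.012, but 0.0934 with the 2 groups alone), and rose in HS578T, to 1.42, 2.95 and 3.01 TPM (log2 0.89, SE 0.30, adjusted p = 0.0469). The HS578T value overlapped with the siNT libraries and was lost without siNRP1#5 replicate 2 or 3 or siNT replicate 2 or 3 (adjusted p 0.0874 to 0.26). It was also lost with no filter on low counts (0.0725), the replicate block (0.0526), the 2 groups alone (0.0832) and limma (0.393), the values being adjusted p.

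TGFBR1, the type I receptor, fell with all 4 constructs in MDA-MB-231 and, with every library kept, passed in no comparison of the other lines. The siNT libraries held 11.7, 9.15 and 10.9 TPM, siNRP1#3 7.19, 8.11 and 8.35 TPM, and siNRP1#5 10.2, 5.10 and 5.50 TPM, of which the first overlapped with the controls. The shNT libraries held 15.96, 13.4 and 14.6 TPM, against 8.26, 7.82 and 7.51 TPM in shNRP1#3 and 8.33, 9.43 and 9.65 TPM in shNRP1#5. The shNRP1#3 decrease was the largest (log2 -0.85, SE 0.16, adjusted p = 0.00403) and held without any single library. The log2 fold change was -0.50 in siNRP1#3 (SE 0.16, adjusted p = 0.0254), -0.46 in siNRP1#5 (SE 0.16, adjusted p = 0.0313) and -0.54 in shNRP1#5 (SE 0.16, adjusted p = 0.0204). The siNRP1#3 call was lost without siNRP1#3 replicate 1 or 3 or siNT replicate 1 or 3 (adjusted p 0.0687 to 0.0886) and with limma (0.155). The siNRP1#5 call was lost without siNRP1#5 replicate 2 or 3 or siNT replicate 1 or 3 (adjusted p 0.082 to 0.14) and with the 2 groups alone (0.197), and the shNRP1#5 call without any library except shNT replicate 2 (adjusted p 0.0582 to 0.0892). In HS578T the values of -1.21 in shNRP1#3 and 0.83 in shNRP1#5 did not pass. In SUM159PT siNRP1#5 the decrease passed without siNT replicate 2 (-0.90). The largest single share of TGFBR1 was assigned to a transcript annotated for nonsense-mediated decay (TGFBR1-220, 48.6% ± 10.8 in the 6 MDA-MB-231 controls, SD), and the gene-level value includes it. Likewise the largest share of SMAD7 was assigned to a retained-intron transcript (54.8% to 58.5% by line) and that of TGFB2 to a transcript with no defined coding sequence (38.4% in MDA-MB-231 and 41.5% in SUM159PT).

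SMAD7, the inhibitory Smad (chromosome 18, 48919853 to 48950965, - strand), fell in 3 of the 6 siRNA comparisons. In SUM159PT the siNT libraries held 12.4, 17.9 and 13.0 TPM, siNRP1#3 4.45, 5.90 and 6.83 TPM and siNRP1#5 4.20 and 8.23 TPM, all below the controls. The log2 fold change was -1.37 (SE 0.26, adjusted p = 0.00378) for siNRP1#3, which held under all alternatives run. For siNRP1#5 it was -1.12 (SE 0.29, adjusted p = 0.0157), and not past the threshold without siNRP1#5 replicate 2 or with the 2 groups alone (adjusted p = 0.0984 and 0.198). In MDA-MB-231 siNRP1#3 it was -0.84 (SE 0.24, adjusted p = 0.0143), lost without siNRP1#3 replicate 1 or siNT replicate 2 (adjusted p 0.0719 to 0.0822). HS578T values were -0.61 and 0.05 and did not pass. In the 6 shRNA comparisons SMAD7 lay between -0.01 and 0.56, and none passed in the model of its line. The MDA-MB-231 shNRP1#5 value passed with the 2 groups alone (0.54).

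The ligand TGFB2 (chromosome 1, 218345336 to 218444619, + strand) was called in 3 of 12 comparisons, all in MDA-MB-231. In MDA-MB-231 the siNT libraries held 24.9, 26.4 and 25.9 TPM. siNRP1#3 lowered it to 9.58, 13.2 and 17.1 TPM (log2 -0.99, SE 0.15, adjusted p = 9.44e-05) and siNRP1#5 raised it to 61.4, 39.3 and 41.3 TPM (log2 1.06, SE 0.15, adjusted p = 2.63e-05), both without overlap and under all alternatives run. Yet shNRP1#5, with the same target sequence, gave 34.0, 41.2 and 34.7 TPM against 53.4, 53.8 and 50.5 TPM in shNT, a log2 fold change of -0.49 (SE 0.15, adjusted p = 0.0241). That call was lost without any of the 6 libraries except shNT replicate 3 (adjusted p 0.0584 to 0.0951) and with limma (0.0806). In SUM159PT, TGFB2 was higher than control in all 4 comparisons (0.54, 1.09, 1.02 and 1.38) but passed in none by edgeR, and shNRP1#5 came closest (adjusted p = 0.0557). It passed in shNRP1#5 with DESeq2 (1.38) and in siNRP1#5, shNRP1#3 and shNRP1#5 with no filter (1.08, 1.02 and 1.33). In SUM159PT shNRP1#5 the libraries spread from 11.3 to 31.4 TPM.

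TGFB1, the most abundant ligand, changed by less than a log2 unit. In MDA-MB-231 it rose with siNRP1#5, from 62.9, 61.7 and 73.9 TPM to 72.3, 67.9 and 95.5 TPM (log2 0.49, SE 0.17, adjusted p = 0.0387), with overlapping groups. This call was lost without siNRP1#5 replicate 2 or 3 or siNT replicate 1 or 2 (adjusted p 0.0702 to 0.212), with the 2 groups alone (0.148), and with limma on log2(TPM + 0.1), where the difference was 0.24 (0.318). It fell with shNRP1#5, from 69.1, 70.3 and 82.5 TPM to 47.7, 47.1 and 39.0 TPM (log2 -0.74, SE 0.17, adjusted p = 0.00544), without overlap and under all alternatives run. TGFB1 passed in no comparison of SUM159PT or HS578T.

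TGFB3, the least abundant ligand, was near 1 TPM in MDA-MB-231 and had as few as 34 expected counts in a library. It fell there with siNRP1#3, from 1.24, 0.82 and 0.90 TPM to 0.41, 0.36 and 0.98 TPM (log2 -0.84, SE 0.24, adjusted p = 0.015), and with siNRP1#5, to 0.38, 0.47 and 0.31 TPM (log2 -0.78, SE 0.24, adjusted p = 0.0202). The first was lost without siNRP1#3 replicate 1 or siNT replicate 2 (adjusted p 0.0782 to 0.0785) and with limma (0.0691). The second was lost without siNT replicate 2 (0.0978), with the 2 groups alone (0.125) and with no filter. In SUM159PT, TGFB3 rose with shNRP1#5, from 1.40, 1.83 and 1.29 TPM to 3.99, 2.83 and 4.08 TPM (log2 1.04, SE 0.26, adjusted p = 0.0273). It was lost without shNRP1#5 replicate 1 or 2 or shNT replicate 1 or 3 (adjusted p 0.0921 to 0.11) and with no filter. In HS578T the replicates of shNRP1#3 were as far apart as 7.97 and 1.77 TPM, and no value passed by edgeR. The HS578T siNRP1#5 libraries held 1.71 to 3.25 TPM of TGFB3 against 4.28 to 5.1 TPM in siNT, without overlap. The log2 fold change there was -1.01 (adjusted p = 0.274). It passed with no filter and with the 2 groups alone (-1.02).

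LTBP2, a matrix protein of the latent TGF-β binding protein family, fell in 3 of the 6 comparisons of a #5 construct. In SUM159PT the siNT libraries held 3.07, 2.01 and 2.55 TPM and siNRP1#5 0.28 and 0.70 TPM (log2 -2.19, SE 0.40, adjusted p = 0.00206). The shNRP1#5 libraries held 0.68, 0.54 and 1.25 TPM against 2.00, 1.42 and 1.16 TPM in shNT (log2 -1.24, SE 0.33, adjusted p = 0.0351), with overlap. The latter was lost without any of the 6 libraries except shNRP1#5 replicate 3 (adjusted p 0.06 to 0.179) and with limma (0.357). The siNRP1#5 call held without any single library but was lost with the 2 groups alone (0.0644). In HS578T siNRP1#5 it went from 10.2, 6.57 and 10.4 TPM to 3.23, 4.08 and 4.80 TPM (log2 -1.15, SE 0.24, adjusted p = 0.00418). In MDA-MB-231 the values of -0.66 (siNRP1#5, adjusted p = 0.0582) and -0.55 (shNRP1#5, adjusted p = 0.125) lay on the same side and did not pass. The siNRP1#5 value passed with no filter (-0.67), the replicate block (-0.66) and without siNRP1#5 replicate 3 (-0.88). The shNRP1#5 value passed with no filter (-0.58) and with the 2 groups alone (-0.57). With siNRP1#3 it passed upwards with no filter (0.56), the block (0.55) and without siNT replicate 3 (0.81). The 3′ UTR of LTBP2 held neither 7-base match.

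LTBP1, which covalently binds the latent complex, passed once upwards and in a pair of comparisons downwards. It rose with siNRP1#3 in MDA-MB-231, from 2.93, 3.29 and 4.29 TPM to 6.50, 6.73 and 9.71 TPM (log2 1.09, SE 0.23, adjusted p = 0.00166), and held under all alternatives run. It fell with siNRP1#5 in SUM159PT, from 1.57, 1.57 and 1.88 TPM to 0.50 and 0.74 TPM (log2 -0.87, SE 0.26, adjusted p = 0.0294), and in HS578T, from 66.8, 51.2 and 68.4 TPM to 27.5, 35.2 and 44.2 TPM (log2 -0.77, SE 0.26, adjusted p = 0.0452). The SUM159PT call was lost without either siNRP1#5 library or without siNT replicate 1 or 3 (adjusted p 0.0571 to 0.0878), with the 2 groups alone (0.259) and with no filter. The HS578T call was lost without any of the 6 libraries except siNRP1#5 replicate 3 (adjusted p 0.0649 to 0.162).

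TGFBI, the most abundant member, passed in a single comparison. In MDA-MB-231 it fell with siNRP1#3 from 134, 155 and 186 TPM to 85.7, 81.8 and 109 TPM (log2 -0.75, SE 0.22, adjusted p = 0.017), without overlap. The call was lost without siNRP1#3 replicate 1 or 2 or siNT replicate 3 (adjusted p 0.0631 to 0.0664). In SUM159PT siNRP1#5, where TGFBI stood at 435 and 531 TPM against 888 to 1212 TPM in siNT, the log2 fold change of -0.70 did not pass (adjusted p = 0.0615). It passed on log2(TPM + 0.1) (-1.12), with DESeq2 (-0.68) and without siNT replicate 3 (-0.82). On log2(TPM + 0.1) the median of all genes was -0.22 in this comparison, against 0.01 on counts.

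With the replicate number as a block, added where same-numbered libraries of MDA-MB-231 siNRP1#5 and siNT deviated together, 2 more members passed there. SMAD7 was at -0.57 (adjusted p = 0.0771) without the block and -0.61 (adjusted p = 0.0375) with it, and LTBP2 reached -0.66 (adjusted p = 0.0173) with it.

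The HS578T siNRP1#5 values were recomputed after removing the estimated MDA-MB-231 share. At 206 CPM (counts scaled to a fixed library total) in MDA-MB-231 siNT, the share over 59 genes would bring 53.7, 41.3 and 28.8 CPM of TGFBR2. The libraries held 50.9, 74.3 and 64.9 CPM of it in all. For NRP1 it would bring 19.2, 14.8 and 10.3 CPM, where the libraries held 11.3, 17.2 and 26.2 CPM. The first subtraction below used this siNT profile at shares over 3 genes of 23.2%, 21.4% and 11.3%. The second used the profile of the same treatment. NRP1 in HS578T siNRP1#5 was -2.66 as deposited, -4.33 after the first and -2.29 after the second. Whether the siNT profile removed too much was not tested. Subtracted counts were not allowed to become negative. The TGFBR2 log2 fold change was -0.40 as deposited (adjusted p = 0.347), -1.90 with the siNT profile of MDA-MB-231 subtracted (adjusted p = 0.162) and -0.37 with its siNRP1#5 profile subtracted (adjusted p = 0.493), and passed in none of these. LTBP1 moved from -0.77 to -0.34 and -0.37 and no longer passed (adjusted p = 0.375 and 0.38). LTBP2 moved from -1.15 to -0.84 (adjusted p = 0.032) and -0.81 (adjusted p = 0.0541), and was -1.01 without siNRP1#5 replicate 2 (adjusted p = 0.0253). TGFBR3 moved from 0.89 to 1.14 (adjusted p = 0.0303) and 1.19 (adjusted p = 0.0211). For HS578T siNRP1#3, TGFBR3 was -2.20 and -1.97 after subtraction and passed in both, and TGFBR2 was -1.16 and -1.25 and passed in neither (adjusted p = 0.548 and 0.0537). No other member passed there after subtraction. The NRP1 decrease was -1.22 with the siNT profile (adjusted p = 0.604) and -1.18 with the same-treatment profile (adjusted p = 0.0134). TGFBR2 in HS578T shNRP1#5, which shares the model, was -1.24 (SE 0.87) and -1.27 (SE 0.33), near its value as deposited, and with the larger error passed in neither (adjusted p = 0.514 and 0.121). NRP1 in HS578T shNRP1#5 was likewise -2.09 as deposited and -2.07 (adjusted p = 0.387) or -2.10 (adjusted p = 0.00353) after subtraction. The subtractions differ both in the profile and in the share used, the first taking a share over 3 genes and the second over 59.

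**Figure D5:**
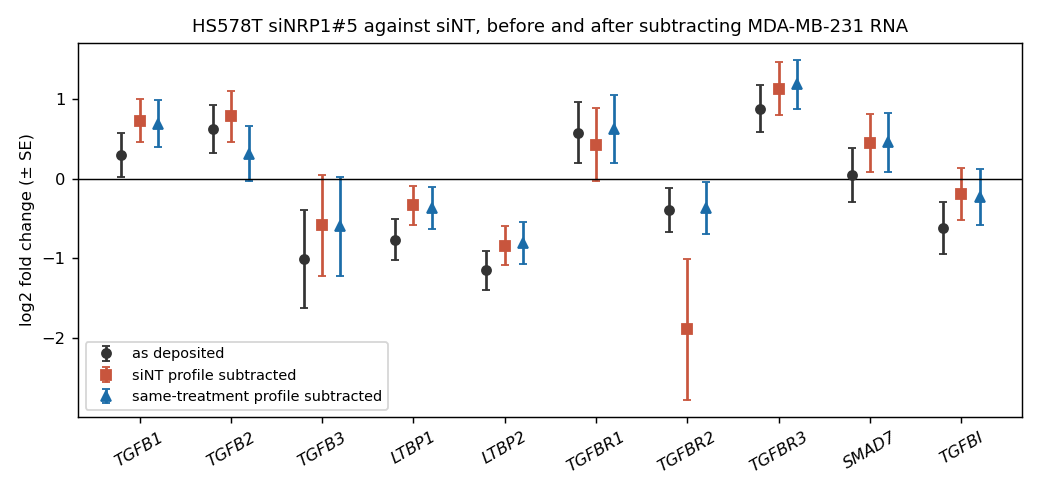
Log2 fold change (± SE) of the 10 genes in HS578T siNRP1#5 against siNT as deposited (circles) and after subtracting the MDA-MB-231 share with its siNT profile (squares) or its siNRP1#5 profile (triangles). TGFBR2 differs most between the 2 subtractions (-1.90 or -0.37), and LTBP1 and LTBP2 move towards 0 under both.

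Whether the #5 sequence acted alike in both deliveries was tested as the difference of the siNRP1#5 and shNRP1#5 effects within each line. In MDA-MB-231, 5 members passed (23.7% of all genes). TGFB2 differed by 1.55 (SE 0.21, adjusted p = 3.55e-05) and TGFB1 by 1.22 (SE 0.24, adjusted p = 0.00121), both higher with siRNA. SMAD7 (-1.13), TGFB3 (-1.06) and TGFBR2 (-0.95) were lower with siRNA, with adjusted p of 0.0181, 0.0257 and 0.0122. SMAD7 was lost without shNT replicate 2 or siNT replicate 2 (adjusted p 0.0551 to 0.0559), and TGFB3 without either of these or shNRP1#5 replicate 3 (adjusted p 0.0593 to 0.078). NRP1 itself differed by -3.83 (adjusted p = 8.14e-09), its siRNA knockdown being the deeper. In SUM159PT, 0 of 10 members passed by edgeR (2.51% of all genes). TGFBR3 (-1.58, adjusted p = 0.0761) and SMAD7 (-1.30, adjusted p = 0.077) came closest and both passed with DESeq2, limma called SMAD7 and TGFBI, and 5 members had an unadjusted p under 0.05. In SUM159PT the all-gene median of this difference was -0.36 on log2(TPM + 0.1), where limma was run, and -0.03 on counts. The TGFBR2 difference there was -0.12 (SE 0.40), beside an NRP1 difference of -2.01 (adjusted p = 0.0315). In HS578T, 0 of 10 passed by edgeR (0.854% of all genes), DESeq2 or limma, 3 had an unadjusted p under 0.05, and the largest was -1.14 for TGFB3 (SE 0.87).

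The controls themselves differed between the siRNA and shRNA arms. In SUM159PT, 4 members were lower in shNT than in siNT, namely SMAD7 (-1.17, adjusted p = 0.0102), LTBP2 (-1.06, adjusted p = 0.0398), TGFBR2 (-0.90, adjusted p = 0.034) and TGFBI (-0.74, adjusted p = 0.0345), where 14.4% of all genes passed. SMAD7 was lost without shNT replicate 3 (adjusted p = 0.056), LTBP2 and TGFBI without any library except siNT replicate 3 (0.0534 to 0.148) and TGFBR2 without any except siNT replicate 2 (0.0604 to 0.147). In MDA-MB-231, TGFB2 (0.82, adjusted p = 0.000718), LTBP2 (0.78, adjusted p = 0.0327) and LTBP1 (0.65, adjusted p = 0.0473) were higher in shNT (20.6% of genes), as was NRP1 (1.23, adjusted p = 1.68e-05). The LTBP1 and LTBP2 calls were lost without any library except siNT replicate 3 (adjusted p 0.0511 to 0.186). In HS578T, 0 of 10 members passed by edgeR (17.9% of genes), DESeq2 or limma, and 1 had an unadjusted p under 0.05. LTBP1 passed with a replicate block (-0.61), TGFB3 with no filter (-0.96) and TGFB3 without shNT replicate 1 (-1.94). Delivery, selection and time cannot be told apart in these contrasts.

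Averaged over the 3 lines with equal weight, 14 of 40 member and construct pairs passed. Each average shares its libraries with the line values above. siNRP1#3 lowered TGFBR3 (-1.72, SE 0.16, adjusted p = 1.51e-10), SMAD7 (-0.95, SE 0.17) and TGFBR2 (-0.63, SE 0.15) and raised LTBP1 (0.42, SE 0.14), beside 21.3% of all genes. siNRP1#5 lowered TGFBR2 (-1.72, SE 0.16, adjusted p = 8.73e-11), LTBP2 (-1.34, SE 0.18), SMAD7 (-0.55, SE 0.17) and LTBP1 (-0.54, SE 0.14) and raised TGFB2 (0.92, SE 0.19), beside 30.3%. shNRP1#3 lowered TGFBR1 (-0.89, SE 0.19) and raised TGFB2 (0.66, SE 0.19), beside 5.91%. shNRP1#5 lowered TGFBR2 (-1.66, SE 0.15, adjusted p = 2.71e-10), LTBP2 (-0.73, SE 0.17) and TGFB1 (-0.50, SE 0.13), beside 15.5%. Replicates of one number were left out together, in turn. The calls for LTBP1 with siNRP1#3 (adjusted p 0.0814 to 0.137) and TGFB2 with shNRP1#3 (adjusted p 0.144 to 0.215) were then lost each time. Without replicate 1 those for TGFBR2 with siNRP1#3, TGFBR1 with shNRP1#3 and LTBP2 with shNRP1#5 were lost (adjusted p = 0.108, 0.0619 and 0.0734). Without replicate 2 those for LTBP1 and SMAD7 with siNRP1#5 and TGFB1 with shNRP1#5 were lost (adjusted p = 0.0524, 0.438 and 0.168). LTBP1 with siNRP1#5 was also lost without the HS578T siNRP1#5 libraries, and TGFBR2 with siNRP1#3 and SMAD7 with siNRP1#5 after one of the 2 subtractions.

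Whether a construct's effect differed between the 3 lines was tested in the same model. For siNRP1#5, 3 members differed (TGFBR2, TGFBR3 and LTBP2, beside 18.2% of all genes), for shNRP1#5 2 (TGFBR2 and TGFB2, beside 3.81%) and for siNRP1#3 1 (LTBP1, beside 3.42%). For shNRP1#3, 0 differed by edgeR (0.747%) and 0 had an unadjusted p under 0.05.

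To place the members in their pathway, 29 further TGF-β genes were examined, covering activation and latency (9), co-receptor and pseudoreceptor (2), Smads and their regulators (9) and response genes (9). Of 332 tested comparisons 68 passed, 34 in each direction, over comparisons in which 0.0356% to 29.4% of all genes passed. The most passed in MDA-MB-231, with 4 genes up and 9 down in siNRP1#3 and 7 up and 8 down in siNRP1#5, of 27 tested. Of all genes, 25.7% passed in MDA-MB-231 siNRP1#3 and 29.4% in MDA-MB-231 siNRP1#5. In HS578T siNRP1#3, 7 rose and 3 fell of 28, beside 4.65% of all genes, and the 7 were response genes, among them IL11, CCN2 and TAGLN. By edgeR 0 passed in SUM159PT shNRP1#3, HS578T shNRP1#3 and HS578T shNRP1#5, where 6, 2 and 9 had an unadjusted p under 0.05, DESeq2 called 0, 1 and 2, and limma 0 in each. By role, 28 of 100 tests of response genes passed (21 up), 18 of 100 of activation and latency genes (4 up), 14 of 108 of Smads and regulators (4 up) and 8 of 24 of ENG and BAMBI (5 up). The 12 comparisons are pooled in these counts, and nothing particular to a role is read from them. The genes with the most calls were TAGLN, SKI and CCN2, with 6, 5 and 5 of 12. IL11 had 4, tied with others of the list, and had the largest absolute mean log2 fold change of these.

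TAGLN, a smooth muscle actin-binding protein used as a TGF-β response gene, rose in 6 of 12 comparisons. In siNRP1#3 its log2 fold change was 4.90 (SE 0.87) in SUM159PT, 2.56 (SE 0.19) in MDA-MB-231 and 3.85 (SE 0.69) in HS578T. In siNRP1#5 it was 4.31 (SE 0.88), 3.48 (SE 0.19) and 1.41 (SE 0.63), of which the last did not pass (adjusted p = 0.129), and in MDA-MB-231 shNRP1#5 it was 0.67 (SE 0.18). SKI, a repressor of Smad transcription, fell with siNRP1#3 in all 3 lines (-1.11, -1.06 and -1.16) and rose with siNRP1#5 in SUM159PT (0.82) and MDA-MB-231 (0.59), and its shRNA values lay between -0.17 and 0.39 with no call. CCN2, a matricellular growth factor, rose in HS578T siNRP1#3 (3.09, SE 0.33) and in 3 comparisons of MDA-MB-231 (0.73, 0.86 and 0.78), and fell in MDA-MB-231 shNRP1#3 (-0.93, SE 0.18). IL11, a cytokine induced by TGF-β, rose in HS578T siNRP1#3 (2.41, SE 0.38), MDA-MB-231 siNRP1#3 (0.80) and shNRP1#5 (0.63), and fell in MDA-MB-231 siNRP1#5 (-0.94).

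Across the 18 groups, with each line centred on its own mean, the members most alike in log2 CPM were TGFBR3 and SMAD7 (Pearson r = 0.78) and TGFBR2 and LTBP2 (r = 0.77), and the most opposed were TGFB2 and TGFBR2 (r = -0.39). Among 11226 genes of at least 5 CPM on average, TGFBR2 was most like DCAF8 (r = 0.89) and MAP3K5 (r = 0.88), TGFBR3 most like ADAM9 (r = 0.94) and SH3TC2 (r = 0.90), and LTBP2 most like FBXO25 (r = 0.94) and ARHGEF25 (r = 0.92). TGFB1 was most like GSN (r = 0.92), TGFB2 most like BFSP1 (r = 0.85) and SMAD7 most like MDM2 (r = 0.81). These are descriptions over 18 group means, 6 from each line.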

How the data were processed

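Per the labels and the study's methods, poly-A RNA libraries were multiplexed across lanes, and the authors trimmed reads with Trim Galore 0.6.5, aligned them to GRCh38 with STAR 2.7.2b and quantified genes and transcripts with RSEM 1.3.3, stranded, on GENCODE 48. They left out 2 outlying samples. The authors deposited expected counts, TPM and, for transcripts, the percent of a gene's transcripts. Expected counts are estimated, and 5.67% of gene values were not whole; they were rounded.

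The members and lists were chosen with earlier results of these data known. All 10 members and NRP1 are named, with the 4 genes of a 29-gene pathway list with the most calls and, by likeness, the closest genes. A gene of the pathway list is counted but not reported here by name. Each line was fitted in R 4.3.3 with edgeR 4.0.16 (filterByExpr, TMM, 6 group means, robust quasi-likelihood test) and all 52 libraries in a model of 18 group means; p-values were adjusted by Benjamini-Hochberg over all genes tested, and 0.05 was the threshold for a call. The tests were checked on simulated counts. SE is the log2 fold change over the root of the F statistic. Replicates were separate cultures or passages. In the shRNA arm they were consecutive passages of transduced cells, so its p-values measure spread between passages. Spread between separate transductions was not measured.

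RNA of another line was estimated from genes at 0.5 CPM or less in the own and 20 CPM or more in the other line's controls. Required of every control, this left 3 MDA-MB-231 genes for HS578T, so control means (59 genes) were used for the share given, a choice made after seeing the data. Counts were recomputed after subtracting the MDA-MB-231 siNT profile at the share of the 3 genes, and, added after seeing the data, the profile of the same treatment at the share of the 59 genes.

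Same-numbered replicates deviated together (r over 0.1 in every pair, with 3 pairs) in 5 of 12 comparisons, namely SUM159PT siNRP1#3 and shNRP1#3, MDA-MB-231 siNRP1#5 and shNRP1#3, and HS578T shNRP1#5. In HS578T shNRP1#3 both of its 2 pairs were over 0.1, too few to count. Alternatives were DESeq2 1.42.0, RLE factors, no filter, a replicate block, the 2 groups alone, limma 3.58.1 on log2(TPM + 0.1), subtraction, and leaving out libraries. On log2(TPM + 0.1) the all-gene median ran from -0.22 (SUM159PT siNRP1#5) to 0.15 (HS578T shNRP1#5) over the 12 knockdown comparisons. It was -0.19 in MDA-MB-231 siNRP1#5. On counts the all-gene medians lay between -0.01 and 0.03. The TPM given for single libraries are not corrected for such shifts. Gene positions and 3′ UTRs came from GENCODE v44 on GRCh38, whose identifiers matched all 10 members apart from the version of 2.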

Additional observations from a re-analysis of the deposited data

Results flagged for a closer look

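The effect of a construct differed between the 3 lines for 6 member and construct pairs, by an F test of equal log2 fold changes in the model of all libraries (adjusted p under 0.05). TGFBR2 differed for siNRP1#5 (adjusted p = 1.42e-05; -3.16, -1.60 and -0.40 in SUM159PT, MDA-MB-231 and HS578T) and for shNRP1#5 (adjusted p = 0.000147; -3.04, -0.65 and -1.26). Both held without the replicates of any one number, and both were lost with the MDA-MB-231 share subtracted by its siNT profile (adjusted p = 0.379 and 0.196). TGFBR3 differed for siNRP1#5 (adjusted p = 0.002; -0.84, -0.65 and 0.89), and its adjusted p was 0.923 without the HS578T siNRP1#5 libraries and 0.14 without replicate 2. LTBP1 differed for siNRP1#3 (adjusted p = 0.0199; 0.56, 1.09 and -0.38), and was lost without replicate 1 or 2 (adjusted p 0.18 to 0.396). LTBP2 differed for siNRP1#5 (adjusted p = 0.0319; -2.19, -0.66 and -1.15) and was lost without replicate 1 or 2 (adjusted p 0.227 to 0.241) and without the HS578T siNRP1#5 libraries (0.0609). TGFB2 differed for shNRP1#5 (adjusted p = 0.0322; 1.38, -0.49 and 0.60) and was lost without replicates of any one number (adjusted p 0.0672 to 0.46) and with the same-treatment profile subtracted (0.0514). For the siNRP1#5 pairs, the HS578T libraries held 14.0% to 26.1% of the MDA-MB-231 marker level.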

How the results depend on the processing

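Of 64 calls followed (members, averages, between-line differences and NRP1), 0 changed sign under the alternatives run, 23 held under every alternative and 41 were lost under at least 1. The counts of calls among members stayed within 1.5 times the reported count except as follows. In SUM159PT 10 became 6 with the 2 groups alone. In HS578T 5 became 3 with limma on log2(TPM + 0.1) and with the MDA-MB-231 share subtracted, 2 with the same-treatment profile subtracted, and 1 of 30 without the HS578T siNRP1#5 libraries. Between-line differences went from 6 to 11 with no filter, pathway calls from 68 to 109 with no filter, and NRP1 calls from 11 to 7 with limma. The cause was not tested. Leaving out single libraries gave 7 to 11 calls in SUM159PT, 14 to 19 in MDA-MB-231, 2 to 5 in HS578T, 3 to 8 for shNT against siNT, 3 to 8 for siNRP1#5 against shNRP1#5, 62 to 75 in the pathway list and 10 to 12 for NRP1. Leaving out one replicate number gave 9 to 12 for the averages, 2 to 6 for the differences and 26 to 27 for the lines. With the replicate block there were 10, 21 and 5 member calls in SUM159PT, MDA-MB-231 and HS578T. Where the numbers pair samples it changed no other call than the 2 given in the report. Elsewhere it added LTBP2 in MDA-MB-231 siNRP1#3 and TGFBR2 in HS578T siNRP1#3 and ended TGFBR3 in HS578T siNRP1#5 (adjusted p = 0.0526). It also added NRP1 in HS578T shNRP1#3, LTBP1 in HS578T shNT against siNT, TGFB3 and TGFBI in the siNRP1#5 average (adjusted p = 0.0355 and 0.029) and LTBP1 and TGFBI in the siNRP1#5 difference between lines (0.0247 and 0.0322), and ended LTBP2 between SUM159PT and MDA-MB-231 (0.102); 21 of 34 libraries correlated best with their own number. Counts over all genes moved more, for example from 7 to 252 in HS578T shNRP1#3 and from 186 to 1076 in HS578T shNRP1#5 with no filter, and from 3590 to 59 in SUM159PT siNRP1#5 with the 2 groups alone. Groups of 2 or 3 libraries limit what could be called, and TGFB3 rested on as few as 34 expected counts.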
